A study of Mus musculus with 18 samples.

Results

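The replication-dependent histone genes encode the H1, H2A, H2B, H3 and H4 proteins that package newly made DNA. Here they were taken as every gene whose symbol starts with Hist and a digit. This gave 65 of 20066 genes (68 of 22089 TSS rows) in the table of differentiation stages and 64 of 20268 names in the table of mouse embryonic fibroblasts (MEFs), where Hist1h1e and Hist1h2be share 1 combined name. By type they are 6 H1, 16 H2A, 18 H2B, 12 H3 and 13 H4 genes, and by cluster 52 Hist1 genes on chromosome 13, 9 Hist2 genes on chromosome 3, 3 Hist3 genes on chromosome 11 and 1 Hist4 gene on chromosome 6.

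The stages come from 10 samples, 2 for each of ESC, MES, HB, HP and MAC. All are of strain 129 and derive from an embryonic stem cell line with GFP under Brachyury. ESC are the undifferentiated cells, MES are Brachyury-positive and Flk1-negative mesoderm, HB are Brachyury-positive and Flk1-positive hemangioblasts, HP are CD41+ hematopoietic progenitors and MAC are CD11b+ macrophages grown from CD41+ cells. The MEFs, of embryonic day 14.5 and strain 129, give 8 libraries, 1 for each of 4 treatments at day 12 and at day 21: untreated (uFIB), Scl and Lmo2 (SL), these with Fli1 and Gata2 (SFGL), and Fli1, Gata2 and Lmo2 without Scl (FGL). Scl is another name of Tal1. The MEFs were wild type or carried rtTA and a doxycycline-inducible TAL1 cassette, the labels do not say which library came from which, and the study's methods describe sorting of cells free of blood and endothelial surface markers before lentiviral transduction. How far the treated libraries still held unchanged fibroblasts is not given in the sources used here, and in such bulk samples fewer cells of a type and less RNA per cell cannot be told apart.

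Every value is in FPKM, a count of fragments scaled to transcript length and library size, as deposited. The stage table holds 1 value per stage in which the authors combined the replicates, and the MEFs have no replicates, so that no value has a replicate error and no difference was tested. A gene counted as compared when it reached 1 FPKM in at least 1 of the 2 columns, and as higher or lower at a 2-fold change of FPKM + 1. The tables were normalized separately, and levels were compared only within a table. The numbers of reads are not in these values. Summed FPKM were between 180554 and 201844 in the 4 earlier stages and 381686 in MAC, and between 371459 and 475780 in the MEFs. All 5 ESC, 5 HP and 6 macrophage markers were highest in their own stage, the ESC list with a sum of 638 FPKM in ESC and 0.189 in MAC, and the macrophage list with 16.8 in HP and 1263 in MAC. The mesoderm markers were divided. Eomes and Mixl1 stood at 34.9 and 46.9 FPKM in MES and at 55.0 and 80.4 in HB. T and Mesp1 stood at 142 and 52.9 FPKM in MES and at 36.4 and 42.9 in HB. Of the HB markers, Kdr, Etv2 and Lmo2 stood at 2.15, 8.45 and 4.45 FPKM in MES and at 77.6, 46.7 and 56.5 in HB. Tal1, also listed for HB, stood at 19.9 FPKM in HB and 57.3 in HP. The 5 fibroblast markers summed to 6371 and 5059 FPKM in uFIB at days 12 and 21. In the library labelled FGL, Tal1, which the label leaves out, stood at 7.04 FPKM at day 12 against 0.0414 in uFIB. Fli1, which the label names, stood at 3.35 FPKM at day 21 against 3.02 in uFIB. Lmo2 (36.2 and 66.5 FPKM at days 12 and 21), Gata2 (21.9 and 35.1) and, at day 21, Tal1 (0.0705) ran as labelled in FGL. SL, labelled without Fli1 and Gata2, had 46.7 and 34.4 FPKM of Fli1 at days 12 and 21. Its Gata2 stood at 68.8 and 62.6 FPKM, and both genes were above uFIB on both days. RNA of a factor outside the label was thus not confined to FGL, and its source was not tested. FGL is therefore named by its label throughout.

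Histone mRNAs of this class are made mainly in S phase, when DNA is copied. They are the best known metazoan mRNAs that end without a poly(A) tail: the transcript is cut behind a short stem-loop that SLBP binds. Some of the genes can also give longer, polyadenylated transcripts, and replacement histones such as H3f3b or H2afz are made from ordinary polyadenylated mRNAs throughout the cell cycle. Core histones form the nucleosome, and the linker histone H1 binds the DNA between nucleosomes.

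The stem-loop is shown for members on which the results turn. It was searched as 16 letters that open with GG, close with CC and hold TTNTNA in the middle, on the sense strand of the GENCODE M21 transcripts (GRCm38), with the last 6 letters the reverse complement of the first 6. It was found in 44 of the 65 members (67.7%) and in 69 of all 21901 protein-coding genes (0.315%). The capitals mark the stem-loop.
Hist1h4d (chr13:23581943-23581972, + strand): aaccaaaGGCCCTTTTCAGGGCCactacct
Hist1h4j (chr13:21735430-21735459, + strand): ccctaaaGGTCCTTTTCAGGACCaccacat
Hist1h3g (chr13:23535882-23535911, + strand): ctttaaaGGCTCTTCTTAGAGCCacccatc
Hist1h2bk (chr13:22036293-22036322, + strand): caccaaaGGCTCTTTTAAGAGCCactaaac
Hist1h1c (chr13:23739505-23739534, + strand): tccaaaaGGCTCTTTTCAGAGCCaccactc
Hist2h3c1 (chr3:96247320-96247349, + strand): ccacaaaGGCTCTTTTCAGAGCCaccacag

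The form in Hist1h1c and Hist2h3c1 was the most common, in 24 members and in no H4 gene. The form in Hist1h4d was in 7 members, all of them H4 genes, and the form in Hist1h4j was in 2 H4 genes. Hist1h3g alone had the letters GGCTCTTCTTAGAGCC. The 21 members without a match include models that are annotated as coding sequence only, such as that of Hist2h2bb, and the spliced model of Hist1h2bc, so that no match says only that these letters are not in the annotated transcript.

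Histone genes were among the most abundant RNAs of the 4 proliferating stages. With the stages in the order ESC, MES, HB, HP, MAC, which is kept wherever 5 values are given, their summed FPKM was 11107, 20196, 20646, 22851 and 1885. As a share of all FPKM this is 6.15%, 11.1%, 10.2%, 12.3% and 0.494%. Histone genes were 5, 10, 10, 11 and 0 of the 20 highest genes. The sum was 1.82-fold higher in MES than in ESC, changed little from MES to HP, and was 12.1-fold lower in MAC than in HP. No stage has an error, and the size of these steps cannot be set against the spread of replicates. The submitters' processing notes name Bowtie and HOMER for ESC and Cufflinks for MES to MAC. The part of processing in any difference between ESC and the later stages was not tested.

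**Figure D1:**
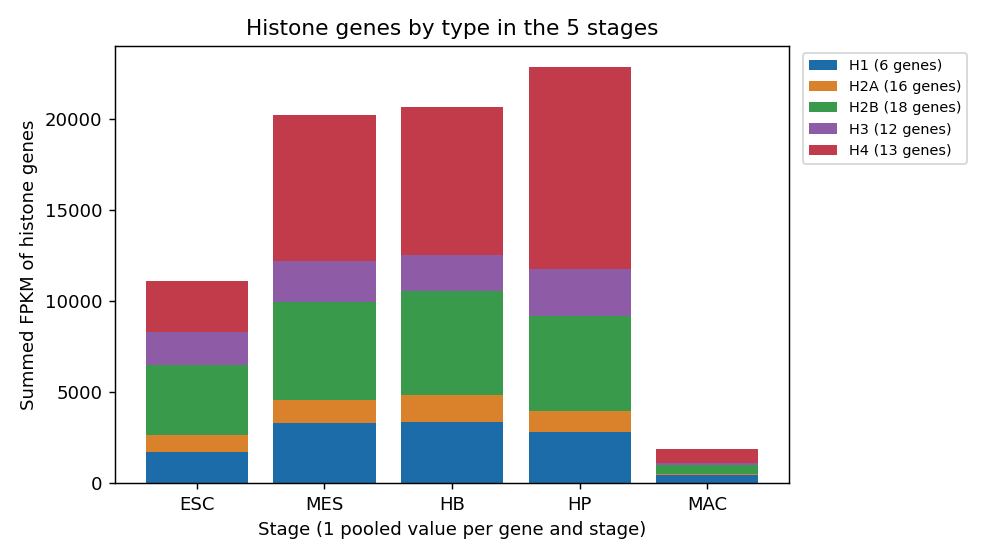
Summed FPKM of the histone genes (y axis) in each stage (x axis), stacked by histone type, with 1 pooled value per gene and stage and no error bars. The bar of HP reaches 22851 FPKM, of which H4 holds 11080, and the bar of MAC 1885.

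The types did not change in step. The 13 H4 genes had sums of 2830, 7990, 8117, 11080 and 781 FPKM, so that H4 took 25.5% of the histone FPKM in ESC and 48.5% in HP. The 18 H2B genes were at 3817, 5384, 5733, 5208 and 476 FPKM. The 6 H1 genes were at 1725, 3282, 3386, 2806 and 439 FPKM. The 12 H3 genes were at 1812, 2244, 1974, 2598 and 99.6 FPKM. The 16 H2A genes had the lowest sum of the core types in the 4 earlier stages and in MAC, with 924, 1297, 1436, 1161 and 90.0 FPKM. The H4 sum was thus 3.92-fold higher in HP than in ESC, and those of the other types between 1.26-fold (H2A) and 1.63-fold (H1) higher. These sums depend on the length each value was divided by, which for many members is the coding sequence alone.

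A few members held much of the histone FPKM. Hist2h2bb, an H2B gene at chr3:96269700-96270192, stood at 2404, 3210, 3411, 2701 and 151 FPKM, and was the highest of all genes in the first 3 of these stages. Hist1h4d, an H4 gene at chr13:23581602-23581913, stood at 1169, 2713, 2490, 3331 and 258 FPKM. Hist1h1a, a linker histone gene at chr13:23763668-23764414, stood at 1034, 1459, 1518, 1276 and 40.5 FPKM. All 3 were lowest in MAC, where Hist1h4d and Hist2h2bb still stood above 100 FPKM. The 3 highest genes of each stage together held between 33.5% (HP) and 44.1% (MAC) of the histone FPKM, and the 10 highest between 65.7% (MES) and 76.5% (MAC).

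Hist1h4f (324, 1296, 1345, 1570 and 55.6 FPKM) and Hist1h4c (321, 821, 900, 1634 and 229) followed Hist1h4d among the H4 genes. Hist1h1b (446, 1158, 1089, 1001 and 19.9) followed Hist1h1a among the linker histones. Hist1h2bb (623, 587, 714, 682 and 24.3) and Hist1h2bj (114, 310, 314, 300 and 12.4) followed Hist2h2bb among the H2B genes. For H3 the highest means were those of Hist1h3a (412, 412, 347, 456 and 20.1), Hist1h3c (177, 359, 352, 398 and 7.12) and Hist1h3g (486, 224, 220, 244 and 2.39). For H2A they were those of Hist1h2ab (250, 259, 280, 264 and 17.6), Hist1h2ak (155, 283, 291, 252 and 12.2) and Hist2h2ac (48.9, 164, 230, 174 and 19.4). All of these genes were lowest in MAC, and their order among the earlier stages differed from gene to gene. At the other end, Hist1h2ad reached no more than 0.334 FPKM in any stage, and none of its 50-base windows was at 1 place among the annotated transcripts.

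**Figure D2:**
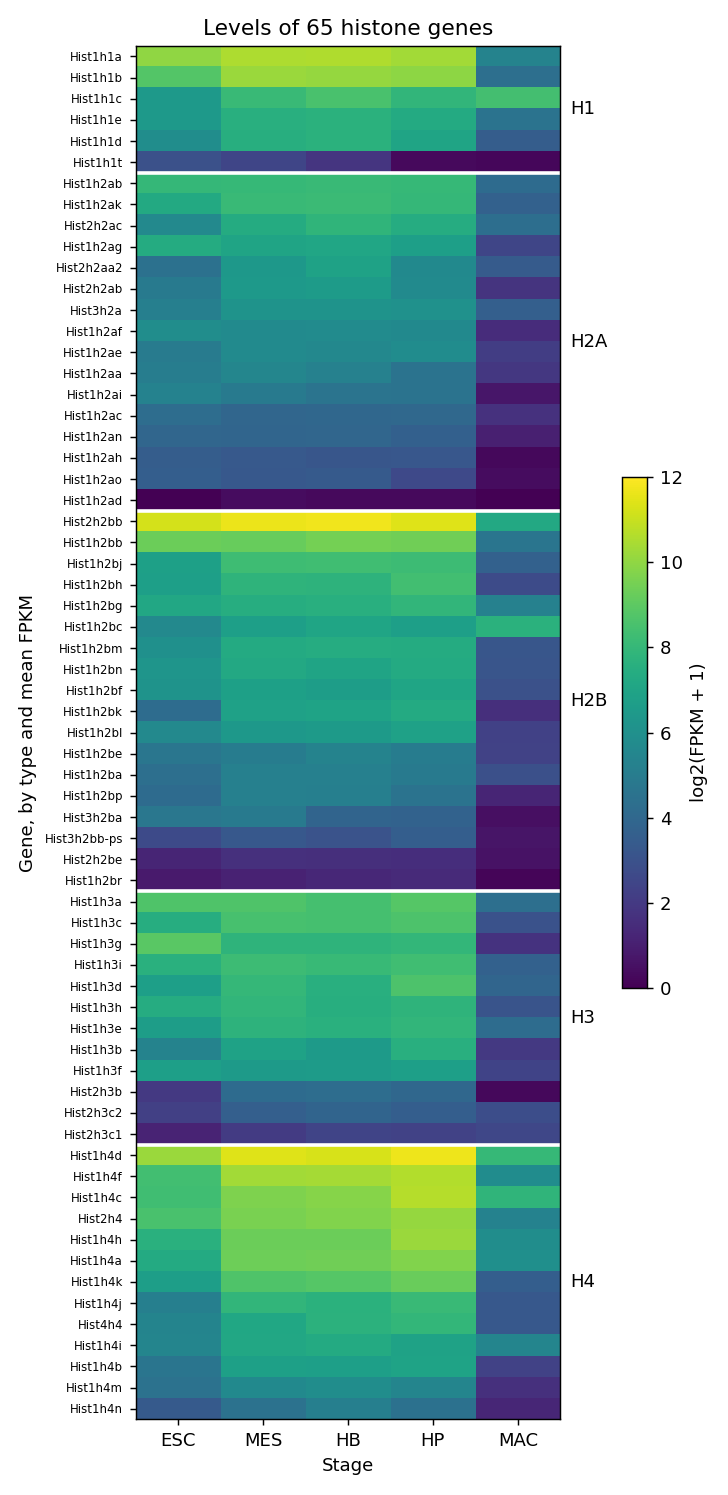
Level of each of the 65 histone genes (rows, by type and then by mean FPKM) in the 5 stages (columns), as log2(FPKM + 1) from 0 to 12. The MAC column is the darkest of the 5 for most rows, and the rows of Hist1h1c and Hist1h2bc stand out in it, at 345 and 201 FPKM.

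From ESC to MES, 31 of 64 histone genes were at least 2-fold higher and 1 was lower, where 6.94% of all 10606 genes were higher and 7.3% lower. The median change was 0.99 on the log2(FPKM + 1) scale against 0.00 for all genes. Of the H4 genes, 12 of 13 were higher, with a median of 1.72. Of the other types, 4 of 6 H1 genes, 6 of 12 H3 genes, 6 of 18 H2B genes and 3 of 15 H2A genes were higher, with medians of 1.22, 0.95, 0.71 and 0.05. Hist1h4j moved from 35.2 to 238 FPKM (log2 change 2.72) and the H2B gene Hist1h2bk from 17.7 to 116 FPKM (2.64). Hist1h3g was the gene at least 2-fold lower, from 486 to 224 FPKM (-1.12). This step coincides with the change in the named processing tools, whose part in it was not tested.

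Neither step from MES to HP moved the family as a whole. From MES to HB, 0 of 64 members were at least 2-fold higher (2.53% of all 10211 genes) and 1 was lower (3.3%). That gene was Hist3h2ba, an H2B gene of the Hist3 cluster, which moved from 30.0 to 13.5 FPKM. From HB to HP, 2 of 64 were higher (8.86% of 10505 genes) and 2 lower (8.8%). Hist1h3d moved from 188 to 397 FPKM and Hist1h3b from 92.0 to 188 FPKM, both H3 genes. Hist2h2aa2, an H2A gene that the authors list at 2 loci, moved from 120 to 51.5 FPKM, and Hist1h1t, the testis-expressed linker histone, from 2.64 to 0.226 FPKM. The median changes were 0.05 and -0.05, where those of all genes were 0.13 and -0.13. All 6 H1 genes were below 0 and 10 of 13 H4 genes above 0 from HB to HP, most of them by less than 2-fold.

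From HP to MAC, 58 of 63 histone genes were at least 2-fold lower, where 13.9% of all 10819 genes were, and 0 were higher, where 33.4% of all genes were. The median change was -3.83 against 0.45 for all genes. By type the lower genes were 4 of 5 H1, 15 of 15 H2A, 16 of 18 H2B, 10 of 12 H3 and 13 of 13 H4 genes, with medians of -3.47, -3.11, -3.71, -4.51 and -4.33. In linear terms, 33 of the 65 genes were at least 20-fold lower in MAC than in HP. Hist1h3g moved from 244 to 2.39 FPKM and Hist1h2bk from 161 to 2.05 FPKM, changes of -6.18 and -5.73. Both ended among the low members in MAC.

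Not every member was low in macrophages. The linker histone gene Hist1h1c, at chr13:23738807-23740367, stood at 90.1, 283, 371, 239 and 345 FPKM. Hist1h2bc, an H2B gene at chr13:23684199-23692480, stood at 48.8, 109, 132, 107 and 201 FPKM. Hist2h3c1, an H3 gene at chr3:96246685-96248509, stood at 1.32, 3.27, 4.52, 4.18 and 4.84 FPKM. These are the 3 members that were not lower in MAC than in HP. Scaling MAC and HP to the same upper quartile of genes above 0, which lowers MAC 1.66-fold, turned the ratio of MAC to HP from 1.44 to 0.868 for Hist1h1c and from 1.16 to 0.696 for Hist2h3c1, and left that of Hist1h2bc above 1, at 1.13 in place of 1.88. The next ratios of MAC to HP were 0.632 for Hist1h1t, which was under 1 FPKM in both, 0.564 for Hist2h3c2, another H3 gene of the same cluster, and 0.366 for the H4 gene Hist1h4i, which stood at 118 FPKM in HP and 43.2 in MAC. In MAC, Hist1h1c and Hist1h2bc together with Hist1h4d, Hist1h4c and Hist2h2bb were the members at or above 100 FPKM.

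**Figure D3:**
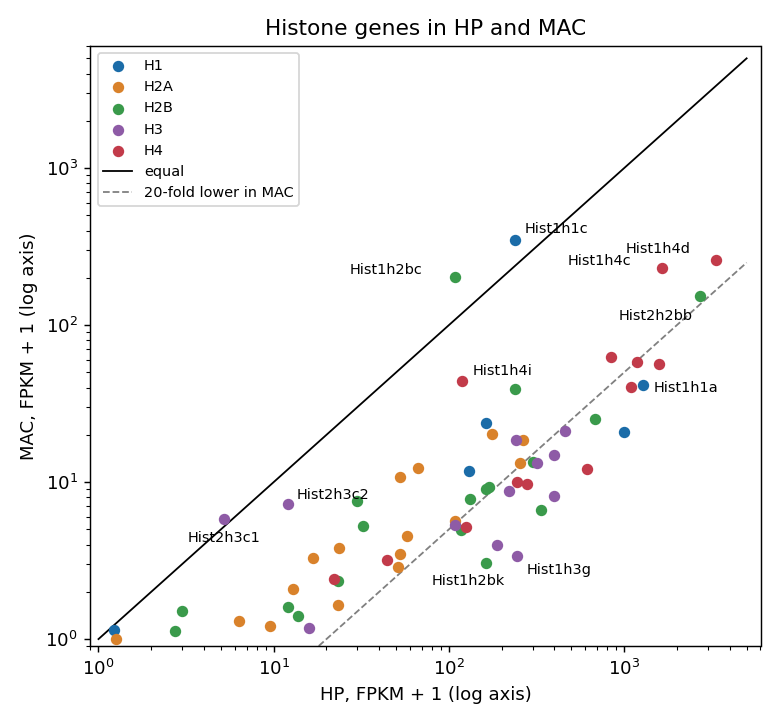
Level of each histone gene in HP (x axis) and MAC (y axis), as FPKM + 1 on log axes, coloured by type, with lines of equal level and of a 20-fold lower level in MAC. Most points lie near the 20-fold line, Hist1h3g and Hist1h2bk lie far below it, and Hist1h1c, Hist1h2bc and Hist2h3c1 lie above the line of equal level in the values as deposited.

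The linker histones show how far members of 1 type could part. In HP and MAC, Hist1h1a stood at 1276 and 40.5 FPKM, Hist1h1b at 1001 and 19.9, Hist1h1e at 162 and 22.7, Hist1h1d at 128 and 10.7, and Hist1h1c at 239 and 345. Hist1h1c thus was the third highest linker histone gene in HP and the highest in MAC. Hist1h1t stood at 6.77, 4.67, 2.64, 0.226 and 0.143 FPKM. The testis-expressed core histone genes Hist1h2aa and Hist1h2ba, which face each other across 305 bases, stood at 33.0 and 20.2 FPKM in ESC and at 2.81 and 6.59 FPKM in MAC.

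The small clusters hold 4 genes. Hist4h4 on chromosome 6 stood at 42.0, 141, 206, 243 and 8.97 FPKM. In the Hist3 cluster on chromosome 11, Hist3h2a stood at 35.8, 71.9, 71.5, 65.4 and 11.2 FPKM, Hist3h2ba at 26.2, 30.0, 13.5, 12.7 and 0.403, and Hist3h2bb-ps, named as a pseudogene, at 5.57, 8.96, 7.38, 11.1 and 0.597. All 4 were at least 2-fold lower in MAC than in HP, and of the Hist3 genes 0 of 3 were at least 2-fold higher in MES than in ESC. Within Hist1, 29 genes between 23531044 and 23764414 on chromosome 13 held 63.1% of all histone FPKM in HP and 77.4% in MAC, and the 16 genes between 21715763 and 21837530 held 14.2% and 5.28%. Hist1h1c is 1 of the 29.

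Many H2A and H2B genes stand head to head, so that 1 stretch of DNA is upstream of both. Of the members, 12 pairs had annotated starts on opposite strands within 1000 bases, between 172 and 659 bases apart, and 11 of them paired an H2A with an H2B gene. In these 11 pairs the 2 partners often moved by different amounts. From ESC to MES all 11 H2B partners were above 0 and 5 of the H2A partners below it, and the H2B partner had the more positive change in 8 of 11 pairs (median difference 0.40). Hist1h2ah and Hist1h2bk stood at 10.8 and 17.7 FPKM in ESC and at 9.04 and 116 FPKM in MES. Hist1h2ag and Hist1h2bj stood at 168 and 114 FPKM in ESC and at 126 and 310 FPKM in MES. In both pairs the H2A gene was a little lower and the H2B gene much higher in MES. The part of the processing tools, which are named differently for ESC, was not tested. Of the 50-base windows of Hist1h2ah and Hist1h2bk only 4.44% and 4.82% were at 1 place among the annotated transcripts. Their values may therefore depend on how reads shared with other genes were assigned.

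From HP to MAC both partners were at least 2-fold lower in 8 of the 11 pairs. The exceptions were Hist1h2ad with Hist1h2bf, of which the first was near 0 in every stage, Hist2h2ac with Hist2h2be, of which the second stood at 1.98 and 0.511 FPKM, and Hist1h2ac with Hist1h2bc. Hist1h2ac stood at 18.8, 14.7, 15.2, 15.7 and 2.29 FPKM from ESC to MAC, and moved by -2.35 from HP to MAC where Hist1h2bc moved by 0.91. The starts of these 2 genes are 250 bases apart in GENCODE.

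The stretches upstream of the genes just described are shown from RefSeq (GRCm38.p6), to let the shared and the single promoters be compared. All 65 members matched a RefSeq gene, and 59 had a promoter entry. Each line holds up to 250 bases before the start of the gene, 5′ to 3′ on its strand, shortened where the transcript of a neighbouring histone gene begins. The motif counts are over the whole 250 bases. Capitals mark the octamer ATTTGCAT, the TATA motif TATAAA and the H1 motif AAACACAA, searched on both strands, which do not overlap in these windows. The first line is the stretch between Hist1h2ac and Hist1h2bc, and the second lies between Hist1h2ah and Hist1h2bk.
Hist1h2ac (chr13:23683960-23684198, - strand): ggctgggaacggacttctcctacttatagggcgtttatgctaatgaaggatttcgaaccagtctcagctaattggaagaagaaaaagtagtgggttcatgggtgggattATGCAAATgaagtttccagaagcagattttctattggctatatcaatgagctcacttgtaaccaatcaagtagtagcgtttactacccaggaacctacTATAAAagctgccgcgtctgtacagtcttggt
Hist1h2bk (chr13:22035644-22035820, + strand): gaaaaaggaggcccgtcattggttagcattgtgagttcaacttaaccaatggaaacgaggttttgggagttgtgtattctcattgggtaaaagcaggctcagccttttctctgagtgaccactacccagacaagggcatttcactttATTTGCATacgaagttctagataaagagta
Hist1h1b (chr13:21780626-21780875, - strand): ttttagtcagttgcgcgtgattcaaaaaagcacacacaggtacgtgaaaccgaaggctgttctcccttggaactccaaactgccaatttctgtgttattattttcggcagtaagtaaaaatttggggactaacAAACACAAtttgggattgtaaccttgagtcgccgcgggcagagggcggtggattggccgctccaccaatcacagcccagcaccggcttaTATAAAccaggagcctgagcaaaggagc
Hist1h1c (chr13:23738557-23738806, + strand): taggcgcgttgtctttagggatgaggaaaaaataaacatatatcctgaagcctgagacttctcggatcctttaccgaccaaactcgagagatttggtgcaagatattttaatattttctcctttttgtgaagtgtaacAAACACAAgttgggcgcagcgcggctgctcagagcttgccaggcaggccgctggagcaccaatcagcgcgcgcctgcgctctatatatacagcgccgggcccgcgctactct
Hist1h4d (chr13:23581318-23581567, + strand): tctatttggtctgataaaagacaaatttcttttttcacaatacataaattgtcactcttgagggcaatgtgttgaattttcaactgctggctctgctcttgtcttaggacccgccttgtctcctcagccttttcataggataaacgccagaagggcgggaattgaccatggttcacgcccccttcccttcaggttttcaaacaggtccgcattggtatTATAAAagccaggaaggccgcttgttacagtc

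The octamer was in 7 of 16 H2A and 7 of 16 H2B promoters (43.8% each) and in none of the 6 H1, 10 H3 and 12 H4 promoters, where 1.6% of all 32851 promoters held it. Head-to-head partners can share a site, which was then counted for both. Hist1h2ae with Hist1h2bg, Hist1h2aa with Hist1h2ba and Hist1h2ah with Hist1h2bk share their octamer in this way. The counts of promoters are therefore not counts of separate sites. The H1 motif was in 4 of 6 H1 promoters (66.7%), 1 H2A and 1 H2B promoter, against 1.67% of all promoters. CCAAT, searched on both strands and not capitalized, was in all H1, H2A and H2B promoters, in 8 of 10 H3 and in 3 of 12 H4 promoters, against 33.8% of all. TATAAA was in every type, in 4 of 6 H1, 7 of 16 H2A, 8 of 16 H2B, 4 of 10 H3 and 6 of 12 H4 promoters, 48.3% in all, and in 12.4% of all promoters. Hist1h1c and Hist1h1b, which parted in MAC, both held the H1 motif and CCAAT, and Hist1h1b alone of the 2 held TATAAA. The stretch of Hist1h1c holds the letters tatatata near its end, which a search for TATAAA does not find. These are matches of letters and not sites of binding.

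Genes that act with the histones were followed as fixed lists. Of 26 genes for S phase and DNA replication, 2 were at least 2-fold higher and 1 lower from ESC to MES, near the shares of all genes (6.94% and 7.3%), with a median of -0.16 where the histone median was 0.99. From HP to MAC, 23 of the 26 were lower and 0 higher (median -2.85), where 13.9% of all genes were lower and 33.4% higher, and of 11 mitosis genes 11 were lower (-3.92). The histone sum was 9.86, 18.2, 16.4, 21.7 and 8.33 times that of the S-phase list. The S-phase genes that moved most were Ccna2, which encodes cyclin A2, with 59.1 FPKM in HP and 1.47 in MAC, and Mcm6, a subunit of the replicative helicase, with 79.9 FPKM in HP and 2.56 in MAC. The replication clamp gene Pcna stood at 65.1 FPKM in HP and 87.5 in MAC, a ratio of 1.34, or 0.807 after the upper quartile scaling.

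Of 16 genes for histone mRNA processing, 4 were lower and 1 higher from HP to MAC, where 13.9% of all genes were lower and 33.4% higher, with a median of -0.63 against 0.45 for all genes. The same shares stand behind the other lists from HP to MAC. Slbp, which encodes the protein that binds the stem-loop, stood at 39.3, 52.0, 58.7, 41.5 and 9.45 FPKM from ESC to MAC, and Npat, a coactivator of histone gene transcription, at 7.95 FPKM in HP and 3.23 in MAC. Lsm10, a component of the U7 snRNP that cuts histone pre-mRNA, stood at 12.8 FPKM in HP and 42.5 in MAC. This is a ratio of 3.33, or 2.00 after the upper quartile scaling. Of 18 histone chaperones, 11 were lower in MAC and 0 higher. The chaperones that moved most were Asf1b, which carries H3 and H4, from 22.2 to 2.26 FPKM, and Chaf1a, a subunit of the complex that places new H3 and H4 on copied DNA, from 26.2 to 2.88 FPKM.

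Of 11 replacement histones, 4 were lower and 0 higher from HP to MAC (median -0.81), against 13.9% lower and 33.4% higher of all genes. H3f3b, which encodes the replacement histone H3.3, stood at 86.6, 170, 187, 154 and 150 FPKM from ESC to MAC. These are values before the upper quartile scaling, which lowers MAC 1.66-fold against HP. H2afx, whose protein marks DNA breaks when phosphorylated, stood at 110, 124, 124, 120 and 4.81 FPKM, and H2afy, a macroH2A gene, at 26.9, 31.0, 40.2, 37.8 and 59.9 FPKM. The ratio of MAC to HP was 1.59 for H2afy, under 2-fold, and 0.953 after the upper quartile scaling.

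In the MEFs the picture was a different one. Histone genes summed to 173, 94.3, 91.3 and 172 FPKM in uFIB, SL, SFGL and FGL at day 12 and to 243, 159, 159 and 237 FPKM at day 21, between 0.0192% and 0.0655% of all FPKM. Of the 64 members, 21 reached 1 FPKM in at least 1 of the 8 libraries, 6 did in all 8 and 11 were listed at 0 in all 8. Genes that led the stages were near 0: Hist2h2bb had 0 to 0.247 FPKM and Hist1h4c 0 to 0.902 FPKM over the 8 libraries. The S-phase list was well measured in the same libraries, with sums of 222 and 218 FPKM in uFIB and of 644 to 793 FPKM in SL and SFGL, and the histone sum was between 0.119 and 1.15 times that of the S-phase list. The labels give ribosomal RNA depletion for the stages, and for the MEFs a total RNA kit with no selection step. The part of library preparation in the low MEF values was not tested.

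The low members rested on single reads. Among 25 single-locus genes of equal length (312, 381, 393 or 411 bases), all 68 values above 0 were whole multiples, within 0.05 of a step, of 1 step per length and library. With that step taken as 1 read, worth 0.172 to 0.872 FPKM, the 25 genes together held between 8 reads (uFIB, day 12) and 46 reads (uFIB, day 21) per library. The highest was Hist1h3d, with 18 reads in uFIB at day 21, and Hist1h2bk had no read in any library, where a count of 0 allows up to 3 reads. Changes of these genes between treatments rest on these few reads. The worth of 1 read differed between libraries. Relative to SL at day 12 it was 1.56, 1.38 and 1.40 in uFIB, SFGL and FGL at day 12. At day 21 it was 1.09 in uFIB and 2.58, 2.02 and 2.66 in SL, SFGL and FGL. A value of 0 in the treated libraries of day 21 thus allows more FPKM than in their uFIB reference.

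Most histone FPKM of the MEFs came from Hist1h1c and Hist1h2bc, which were also high in macrophages. Hist1h1c stood at 68.5, 45.8, 46.3 and 70.0 FPKM in uFIB, SL, SFGL and FGL at day 12 and at 75.1, 65.8, 80.0 and 83.4 FPKM at day 21. Hist1h2bc stood at 72.2, 25.4, 19.3 and 68.5 FPKM at day 12 and at 120, 53.7, 50.5 and 108 FPKM at day 21. These 2 genes, singled out after their values were seen, were the members above 10 FPKM in any library and held between 71.9% and 82.0% of the histone FPKM. Hist1h2ac, the partner of Hist1h2bc, had 0.0630 to 0.584 FPKM in the 8 libraries.

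**Figure D4:**
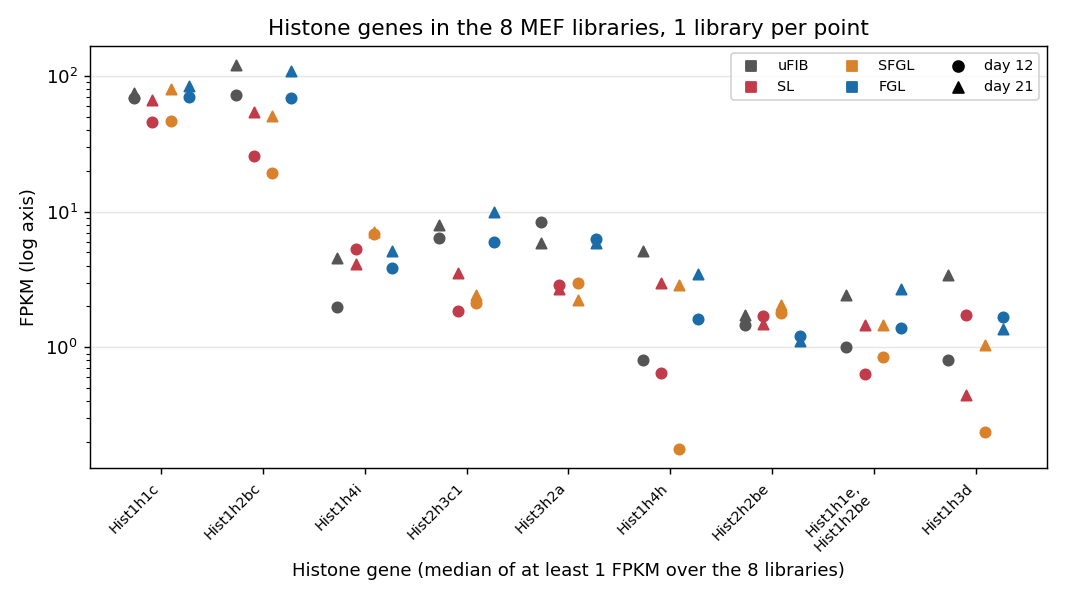
FPKM (log axis) of the 9 histone names with a median of at least 1 FPKM over the 8 MEF libraries (x axis), 1 point per library, coloured by treatment, with circles for day 12 and triangles for day 21. Hist1h1c and Hist1h2bc lie above all others at 19.3 to 120 FPKM, and Hist1h2bc, Hist2h3c1 and Hist3h2a lie lower in SL and SFGL than in uFIB and FGL on both days.

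The 9 names with a median of at least 1 FPKM over the MEFs were Hist1h1c, Hist1h2bc, Hist1h4i, Hist2h3c1, Hist3h2a, Hist1h4h, Hist2h2be, the combined Hist1h1e and Hist1h2be, and Hist1h3d. Their median ratio of MAC to HP was 0.258, and that of the 55 other names 0.0476. Of the 10 names with the highest ratio of MAC to HP, 6 were among these 9. Because the tables were normalized separately, only the gene lists and ratios within a table were set side by side.

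The annotated end of the transcript was set beside the same values. In 18 members the transcript went on for more than 200 bases past the stem-loop, in 26 it ended within 200 bases of it, and 21 had no stem-loop in the model. The MEF median was at least 1 FPKM for 7 of the 18 members, 1 of the 26 and 2 of the 21, the shared name counting for both its genes. The median ratio of MAC to HP was 0.109, 0.0493 and 0.0476. The transcript of Hist1h1c went on for 840 bases past the stem-loop, that of Hist2h3c1 for 1162 and that of Hist3h2a for 1643, while that of Hist1h3g ended 47 bases past it and that of Hist1h2bk 30 bases. AATAAA, the poly(A) signal, was searched in the last 40 bases of every annotated transcript of a gene. At least 1 transcript held it in 14 of the 65 members (21.5%) and in 64.1% of all protein-coding genes. That transcript need not be the one whose stem-loop is described. Hist1h1c, Hist2h3c1, Hist3h2a and Hist2h2be were among the 14. The MEF median was at least 1 FPKM for 5 of the 14 members and for 5 of the 51 others. The median ratio of MAC to HP was 0.0750 for the 14 and 0.0484 for the 51. Hist1h2bc had no AATAAA in the last 40 bases of any annotated transcript. Hist1h4c, near 0 in the MEFs, had a transcript that went on for 454 bases, but these lie outside the locus that the authors list for it. The same holds for the long ends of Hist1h2bh, Hist1h3d, Hist1h3e, Hist1h4d, Hist1h4j and Hist2h4. Of these genes Hist1h3d alone had a MEF median of at least 1 FPKM. The counts by transcript end thus mix members whose long end lies inside and outside the authors' locus. The ends are those of the annotation, and which ends were used in these cells was not tested.

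The comparisons of treatments rest on few members. SL was compared with uFIB over 13 histone genes at day 12, of which 2 were at least 2-fold higher (14.2% of all genes) and 4 lower (13.5%), and over 19 at day 21, of which 4 were higher (11.9%) and 5 lower (12.3%). SFGL had 2 of 14 higher (14.7%) and 5 lower (17.0%) at day 12, and 0 of 16 higher (13.9%) and 7 lower (15.9%) at day 21. The library labelled FGL had 1 of 14 higher (2.96%) and 1 lower (0.302%) at day 12, and 1 of 16 higher (0.479%) and 2 lower (0.376%) at day 21. These last 2, Hist1h4d and Hist1h4j, each had 3 reads in uFIB and 0 in FGL, and the higher gene, Hist1h4k, had 2 and 4. A low member can pass the filter only through the column where it is high. The counts of all 3 treatments can therefore not be read as an excess over the shares of all genes. The median changes were -0.63 and -0.29 in SL, -0.37 and -0.97 in SFGL and -0.08 and -0.07 in FGL, at days 12 and 21. Between the untreated libraries, 4 of 16 histone genes were at least 2-fold higher at day 21 than at day 12 and 0 lower. Of all genes 1.87% and 1.28% were, and the histone median was 0.37. The 4 genes, Hist1h2bn, Hist1h4j, Hist1h3d and Hist1h4h, were all under 1 FPKM at day 12. They were thus compared only through day 21, where they were high.

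Of the 9 names with a median of at least 1 FPKM, 6 were lower than uFIB on both days in SL and 6 in SFGL, of which 1 and 3 were at least 2-fold lower on both. Of all 11758 genes with such a median, 44.2% in SL and 44.9% in SFGL were lower on both days, and 8.72% and 12.5% at least 2-fold. No name of the 9 was higher on both days in SL, and 2 were in SFGL (40.7% and 41.6% of all genes). In FGL, 2 of the 9 were lower on both days (31.6% of all genes) and 0 at least 2-fold lower on both (0.017%). Hist1h2bc was 2.84-fold lower in SL and 3.74-fold lower in SFGL at day 12, and 2.23-fold and 2.37-fold lower at day 21. Hist2h3c1 stood at 6.37, 1.85, 2.14 and 5.95 FPKM in uFIB, SL, SFGL and FGL at day 12 and at 7.94, 3.50, 2.44 and 9.88 FPKM at day 21. Hist3h2a stood at 8.35, 2.90, 2.96 and 6.33 FPKM at day 12 and at 5.84, 2.67, 2.25 and 5.89 FPKM at day 21. For all 3 the 4 libraries of SL and SFGL were below the 4 of uFIB and FGL. Hist1h1c was lower than in uFIB in SL on both days and in SFGL at day 12, and at day 21 SFGL was above uFIB.

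Hist1h4i stood higher in SFGL than in uFIB on both days, at 6.87 against 1.99 FPKM at day 12 and 7.06 against 4.52 at day 21, in FGL on both days, at 3.86 and 5.08 FPKM, and in SL at day 12 alone, at 5.30 FPKM. Hist2h2be, an H2B gene with no stem-loop in its model, stayed between 1.12 and 2.04 FPKM in all 8 libraries. In SL, Hist1h4d had the changes of 1.12 and 1.08 on the 2 days, from 1 to 7 and from 3 to 4 reads. In FGL, Hist2h4 had the most downward change when genes are ranked by the smaller of both days, at 0.347 against 2.33 FPKM in uFIB and 1.32 against 1.90. Hist1h2bj in SL, Hist1h2bm in SFGL and Hist1h2bn in FGL were the upward changes named by the same ranking, each resting on no more than 6 reads in any library.

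The makeup of the libraries moved with these values. All 5 fibroblast markers were lower in SL and SFGL than in uFIB on both days, with sums of 905 to 2178 FPKM against 5059 and 6371 FPKM. The 6 blood markers summed to 203 to 361 FPKM in SL and SFGL and to 21.5 and 26.7 FPKM in uFIB, where Gata1 was at 0 and 0.0225 FPKM. FGL had 51.9 FPKM of them at day 12 and 26.0 at day 21. The part of the cell mixture in the histone values was not tested.

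The S-phase genes were higher in SL and SFGL. Of the 27 S-phase genes, 22 were at least 2-fold higher at day 12 in both SL and SFGL than in uFIB and 21 at day 21, with 0 lower and medians between 1.45 and 1.72, where 11.9% to 14.7% of all genes were higher. All 12 mitosis genes were higher in each of these 4 libraries. Slbp stood at 17.7, 50.6, 45.5 and 21.5 FPKM in uFIB, SL, SFGL and FGL at day 12 and at 18.2, 39.4, 37.0 and 17.2 FPKM at day 21. Of the replacement histones, H2afz stood at 56.3, 291, 282 and 70.4 FPKM in uFIB, SL, SFGL and FGL at day 12, and H3f3b stayed between 202 and 252 FPKM. The histone medians of the same 4 libraries, given above, rest on 13 to 19 genes with few reads. That of SL at day 21 was -0.29, and -0.08 with both uFIB libraries as reference, and that of SFGL at day 12 was -0.37, and -0.09 without the filter on low values.

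**Figure D5:**
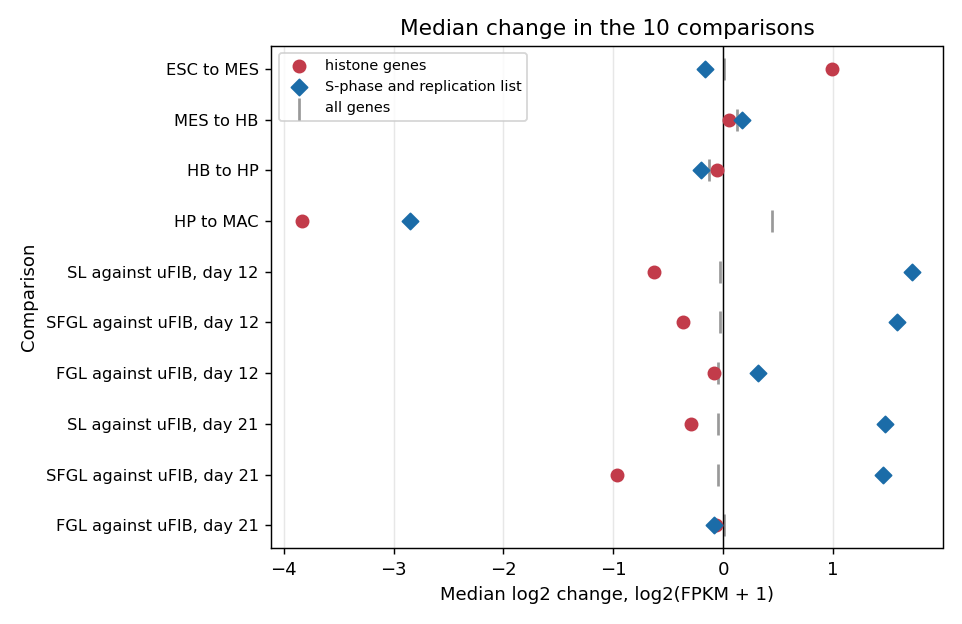
Median change on the log2(FPKM + 1) scale (x axis) of the histone genes, of the S-phase and replication list and of all genes in each of the 10 comparisons (y axis), without error. Both lists lie far to the left from HP to MAC, at -3.83 and -2.85, and lie on opposite sides of 0 in SL and SFGL on both days.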

How the data were processed

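RNA-seq of 18 mouse samples was used, 10 of differentiation stages and 8 of MEFs. The values are FPKM as the authors deposited them. The study's methods name alignment with SHRiMP to mm10, unique reads, removal of duplicates with Picard, and Cufflinks; the stage table joins both replicates of a stage. The submitters' processing notes name Cufflinks for MES to MAC, Bowtie and HOMER for ESC, and TopHat and Cufflinks for the MEFs. Versions and the selection of MEF RNA are not given in the sources used here. The median member had 44.3% of its 50-base windows at 1 place among the annotated transcripts. Hist2h2aa2 and Hist1h4n, with 0% of their windows at 1 place, still stood at 120 and 35.0 FPKM in HB. How reads of near-identical genes were assigned cannot be told from these values.

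TSS values were summed per gene. 1 column, for a stage with no sample here, was not used. Changes were taken on log2(FPKM + 1) among genes with at least 1 FPKM in 1 of both columns and counted from 2-fold. FPKM do not hold the number of reads, so that depth is unknown for the stages. Samples were grouped by their titles. No test was run and no p-value is given, since no column has replicates. Alternatives were pseudocounts of 0.001 and 0.1, upper quartile scaling, no filter, another reference, and members with at least 50% unique windows, which was chosen after seeing the data.

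Genes were named by rule: the 3 highest of each type, at each stage step the 2 with the largest change in either direction, for each treatment those furthest in 1 direction on both days, all H1, Hist3 and Hist4 genes, testis-expressed genes, those not lower in MAC than in HP, and members of the processing and replacement lists. Genes of head-to-head pairs were added after their values were seen. The members and lists were chosen with earlier results of these data known. Counting of changes was tested on simulated data. The read step was taken as the smallest value of a length class. Transcripts are from GENCODE M21 and promoters from RefSeq (GRCm38.p6); coordinates are counted from 1. Python 3.11.15, NumPy 2.4.6, pandas 2.3.3 and matplotlib 3.10.9 were used.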

Additional observations from a re-analysis of the deposited data

Results flagged for a closer look

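Of the 9 histone names with a median of at least 1 FPKM over the MEFs, 3 in SL, 1 in SFGL and 4 in FGL had opposite signs on the 2 days against uFIB. The 2 days differed by at least 1 on the log2(FPKM + 1) scale for 2 names in SL, 0 in SFGL and 1 in FGL. Hist1h3d in SL changed by 0.59 at day 12 and by -1.60 at day 21, a difference of -2.19. In the library labelled FGL it changed by 0.57 and by -0.88, a difference of -1.46. Both share the uFIB libraries, in which Hist1h3d rested on 3 reads at day 12 and 18 at day 21, against 10 and 1 in SL and 7 and 3 in FGL. Hist1h4i in SL changed by 1.08 and by -0.12, a difference of -1.19. With 1 library per treatment and day, none of these differences was tested.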

How the results depend on the processing

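No paired analysis was possible because the stage values combine both replicates and each MEF condition is 1 library. Of 194 alternative values, 167 stayed close to the reported ones and 27 moved. A reversal could be called only for a reported median of at least 1 in size. The 0 reversals therefore say nothing of counts, shares and smaller medians. The cause was not tested. Scaling to the same upper quartile gave a median of -4.47 from HP to MAC. Among members with at least 50% unique windows, which was chosen after seeing the data, 0 were lower from ESC to MES, 1 lower from MES to HB and 0 higher from HB to HP; in FGL 0 were higher and 1 lower at day 12 and 0 higher at day 21, and in SL 1 was lower at day 21. With the mean of both uFIB libraries as reference, at day 12 0 were higher in SL and 1 in SFGL, while 1 was lower in SL at day 21, with 3 lower in SFGL and with 2 higher and 0 lower in FGL, whose median turned from -0.07 to 0.22. With a pseudocount of 0.001, 7 were lower in SL at day 12 (median -1.49) and 3 higher in FGL; with 0.1, 7 were lower in SL (median -1.305). Without the filter the SFGL median at day 21 was -0.17. Without Hist1h1c the histone shares of uFIB, SL, SFGL and FGL at day 12 were 0.0269%, 0.0106%, 0.00946% and 0.0273%, and those of SL, SFGL and FGL at day 21 were 0.0244%, 0.0187% and 0.0409%. The planned restriction to genes unique in the genome was not run, since no genome was used here. Few reads limit the MEF members under about 1 FPKM.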
